A study of Gallus gallus with 12 samples.

Results

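In whole chick lung, 86 of 21390 transcripts were lower at embryonic day (E) 16 than at E14 and stayed at the E16 level to E18. They were chosen by their values. All 12 values of such a transcript had to be at least 8 on the log2 scale, every E16 and every E18 value had to lie below every E14 value, the E16 mean had to be at least 0.5 below the E14 mean, and the means of E18 and E16 had to lie less than 0.3 apart. Of the 21390 transcripts, 13860 had all 12 values at least 8. In all 86, by the choice, every E16 value was below every E14 value, as in 19.1% of all transcripts and 21.9% of the 13860, and every E18 value was below every E14 value, as in 28.2% and 35.1%. The lower level at E16 and the flat course to E18 are therefore properties of the choice, and they are described here without support from a test. The E15 values were used only for the floor of 8.

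Lungs were taken from untreated white leghorn embryos at E14, E15, E16 and E18. From total RNA of 3 samples per stage, cDNA was made, labelled and hybridized to a custom NimbleGen array. The breed is stated in the paper. The labels give the stage and the replicate, and do not say whether a sample was 1 embryo or a pool. Every p-value below therefore measures only the spread between these samples. The authors deposited log2 values, 1 per transcript and array. The values carry Ensembl transcript identifiers and no gene names, and 0 of the identifiers were found in the gene table used here, so the genes of the 86 transcripts, their roles and the markers of lung cell types are not described.

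The bird lung conducts air through parabronchi, from whose walls air capillaries grow out late in incubation. These meet a dense net of blood capillaries, and the tissue between them thins until air and blood are parted by a narrow barrier that must work at hatching. E14 to E18 falls in this phase. In RNA of a whole organ, fewer cells of a type and less RNA per cell give the same lower value and cannot be told apart.

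The 86 transcripts spanned much of the upper range of the arrays. Their mean over the 12 arrays ran from 8.76 to 13.80 with a median of 11.05, and it was under 10 for 23 of them, between 10 and 12 for 48 and 12 or more for 15. A random-sequence control read between 4.40 and 5.17 on the same arrays. The median E14 mean of the members was 11.50, close to the median of 11.95 among the 13860 transcripts above the floor.

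E16 minus E14 ran from -1.81 to -0.50 log2 units over the members, with a median of -0.67. A median member thus read 62.8% of its E14 level at E16, and the member with the largest difference read 28.5%. The difference was at least 1 log2 unit in 11 members, between 0.7 and 1 in 26 and smaller in 49. Over all 21390 transcripts the median of E16 minus E14 was -0.03, and over the 13860 above the floor it was -0.04. The size of the difference had a Pearson correlation of 0.05 with the E14 mean across the 86 members, which share their arrays and are not independent.

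**Figure D1:**
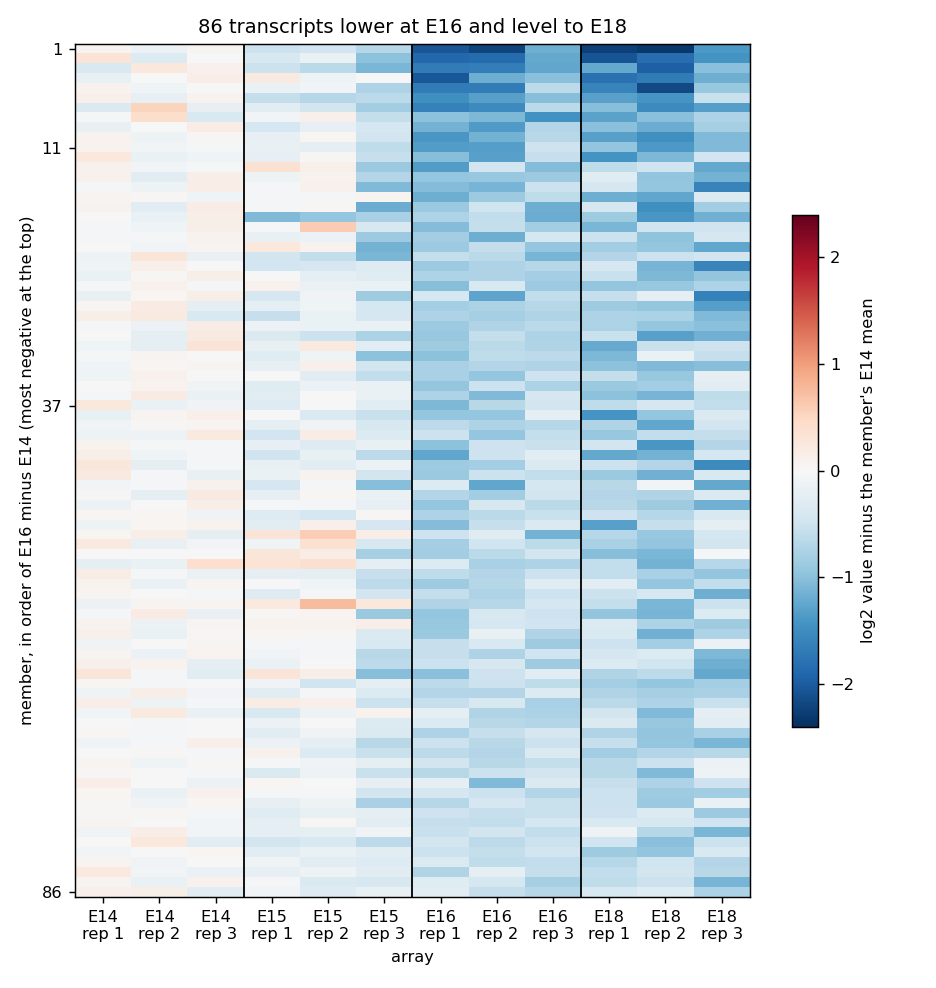
Each row is 1 of the 86 members and each column 1 array, and the colour gives the log2 value minus the member's mean at E14. Rows run from the largest to the smallest difference between E16 and E14, the first 11 rows differing by at least 1 log2 unit, and the 3 columns of E16 and of E18 are below 0 in every row, as the choice requires.

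On single arrays the members lay below the other bright transcripts in each E16 sample, as the choice favours. Relative to the E14 mean, the median member was at -0.80 on E16 replicate 1, -0.67 on replicate 2 and -0.61 on replicate 3. The 13860 transcripts above the floor had medians of -0.06, -0.02 and -0.05 on the same arrays. The SD of all values of an array was 2.51, 2.61 and 2.59 in the same order, so it was lowest on replicate 1. That the 3 E16 samples were low together in the members follows from the choice. The bright transcripts at large were near the E14 level.

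At E18 the picture differed by sample. The median member was at -0.68 on E18 replicate 1, at -0.93 on replicate 2 and at -0.74 on replicate 3. The 13860 transcripts above the floor were at -0.06, -0.19 and -0.51 on these arrays, and the SD of all values of an array was 2.58, 2.38 and 2.22 in the same order, against 2.61 to 2.62 at E14. The members lay 0.62 below the bright transcripts on E18 replicate 1, 0.73 on replicate 2 and only 0.23 on replicate 3. On E18 replicate 3, bright transcripts as a whole read low and the values of the array were compressed, and the low level of the members on that array stood out least. After cyclic loess normalization, which removes differences between arrays that depend on brightness, the median of E18 minus E16 over the 86 members was 0.24, against -0.08 in the deposited values, and that of E18 minus E14 was -0.41, against -0.77. After median centring of each array the median of E18 minus E16 was 0.01, so its sign depended on the scaling. On the deposited scale the choice itself fixes the level course to E18. After cyclic loess 26 of the 86 members met the whole rule.

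**Figure D2:**
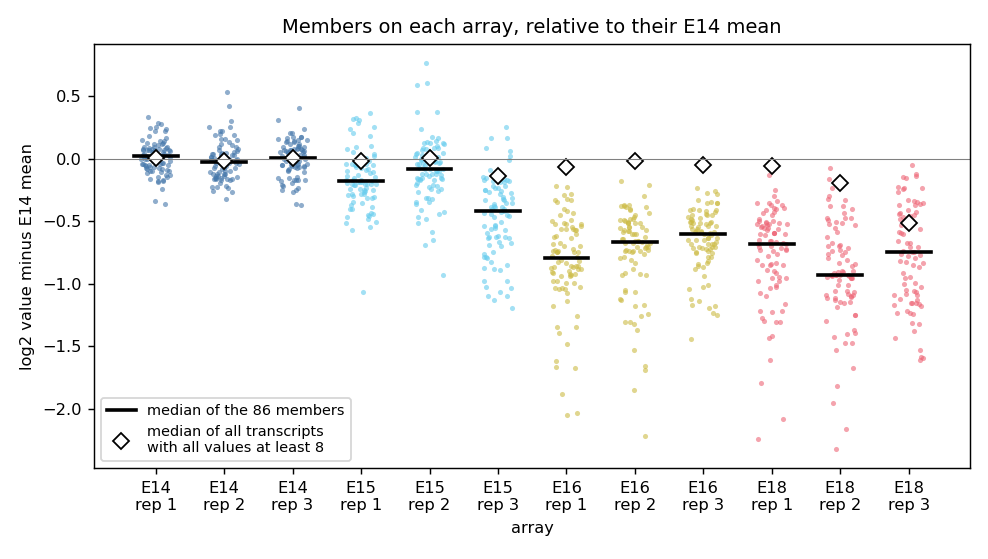
Points are the 86 members on each of the 12 arrays, as log2 values minus the member's E14 mean, and bars are their medians. Diamonds are the medians of the 13860 transcripts with all values at least 8, which stay within 0.07 of the E14 mean at E14, at E16 and on E18 replicate 1 and drop to -0.51 on E18 replicate 3.

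Within a stage the members varied more at E16 than the other bright transcripts did. Their median SD over 3 arrays was 0.14 at E14, 0.23 at E15, 0.23 at E16 and 0.32 at E18. For the 13860 transcripts above the floor the median SD was 0.11, 0.15, 0.12 and 0.38 over the same stages. The spread at E16 had a direction in the members with the largest differences. Of the 11 members that differed by at least 1 log2 unit, 10 had their highest E16 value on replicate 3 and 9 had their highest E18 value on replicate 3. Among the other 75 members these numbers were 32 and 33. Over the 13860 transcripts above the floor, replicate 3 was the highest E16 sample in 30.1% and the highest E18 sample in 18.2%. In the 11, E16 replicate 3 lay a median of 0.60 above the mean of replicates 1 and 2, against 0.08 in the other 75, and across all 86 members this excess had a Pearson correlation of 0.49 with the size of the difference. Relative to their E14 mean the 11 members had medians of -1.62 on E16 replicate 1, -1.37 on replicate 2 and -1.01 on replicate 3, all below the level of E14.

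ENSGALT00000032430 was the member with the largest difference between E16 and E14. It read 12.28, 12.08 and 12.29 at E14, 11.70, 11.75 and 11.52 at E15, 10.17, 9.998 and 11.04 at E16, and 9.97, 9.89 and 10.84 at E18. All later samples lay below all E14 samples, and replicate 3 was the highest of its stage at both E16 and E18, by 0.96 over the mean of replicates 1 and 2 at E16. Its mean was 10.40 ± 0.56 at E16 and 12.22 ± 0.12 at E14 (SD, n = 3 each), a difference of -1.81 with a standard error of 0.31. The adjusted p of limma for this contrast was 0.0649, and the 5 settings that brought it under 0.05 include the fit without E16 replicate 3 (0.0356) and that without E18 replicate 3 (0.0280).

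ENSGALT00000014738 was the brightest member. It read 14.22, 14.12 and 14.43 at E14, 14.11, 14.10 and 14.09 at E15, 13.39, 13.53 and 13.60 at E16, and 13.49, 13.33 and 13.26 at E18. Its mean was 13.51 ± 0.11 at E16 and 14.25 ± 0.16 at E14 (SD, n = 3 each), a difference of -0.75 with a standard error of 0.13 and an adjusted p of 0.0649 in limma. This transcript kept 59.6% of its E14 level at E16, and its E15 samples, with an SD of 0.01, all lay just under the lowest E14 sample. Without E18 replicate 3 its adjusted p was 0.0304. For either transcript, an exact two-sided permutation test of the 3 arrays at E15 against the 3 at E14 came to p = 0.1, and 3 arrays against 3 cannot give a lower value. For E16 and E18 the choice itself fixes that value, and for E15 the choice of high E14 values leans the test to a fall.

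**Figure D3:**
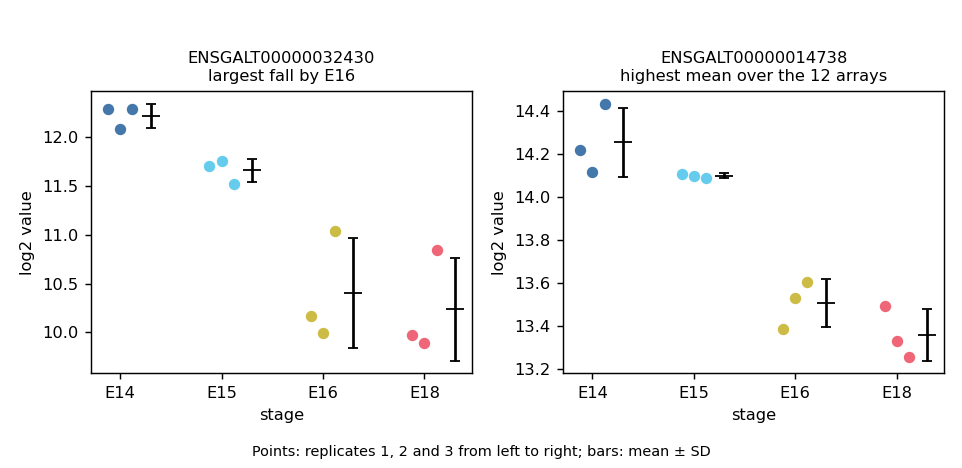
Log2 values of the member with the largest difference between E16 and E14 and of the brightest member, by stage. Points are the 3 replicates from left to right, and bars are the mean ± SD. In ENSGALT00000032430 replicate 3 stands above replicates 1 and 2 at E16 and E18, and in ENSGALT00000014738 each E16 and E18 value lies below each E14 value by at least 0.51.

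The member with the second largest difference read 12.15, 11.49 and 11.80 at E14, 11.43, 11.66 and 10.84 at E15, 9.93, 9.97 and 10.58 at E16, and 9.74, 9.99 and 10.38 at E18, again with replicate 3 highest at E16 and E18. Unlike in the first, its E15 samples overlapped those of E14. The member with the fourth largest difference read 12.00, 12.20 and 12.35 at E14, 12.39, 12.06 and 12.17 at E15, 10.15, 11.02 and 11.17 at E16, and 10.39, 10.51 and 11.02 at E18. Its E15 samples overlapped those of E14 and lay above every E16 sample. The smallest difference, 0.50, belonged to a member with 12.31, 12.33 and 11.94 at E14 and 11.92, 11.65 and 11.52 at E16, where the groups were only 0.03 apart.

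Differences between stages were tested in limma with 1 mean per stage over all 12 arrays and Benjamini-Hochberg adjustment over 21390 transcripts. Of the 86 members, 0 were called lower at E16 than at E14 at an adjusted p of at most 0.05, and 81 had an unadjusted p under 0.05, as the choice favours, where 7.68% of all transcripts did. Over all transcripts 2 were called lower, 0.00935%. The lowest adjusted p among the members was 0.0649. After median centring, cyclic loess and quantile normalization 1 member was called in each, where 0.0608%, 0.108% and 0.0187% of all transcripts were called lower. An intensity trend with robust variances called 4 members, against 0.0748%. Without the dimmest transcripts 8 of the 78 members left were called, against 0.182% of the transcripts kept. The count depended on single arrays. It was 3 without E16 replicate 3, 13 without E18 replicate 3 and 17 without both E18 replicates 2 and 3, where 0.0421%, 0.323% and 0.725% of all transcripts were called lower.

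The contrast between E18 and E14 called 54 of the 86 members lower, where 12.6% of all transcripts were called lower. Across the 4 stages the moderated F-test called 20 members, against a share of 4.41% over all transcripts. The choice used the values behind these counts, so the counts carry no support. A fit restricted to E14 and E18 called 0 members lower at E18, where 0.468% of all transcripts were called lower. The F-test count was 1 when E18 replicate 2 was omitted, 30 when E18 replicate 3 was, and 53 when E18 replicate 1 was. The same fits called 1.05%, 5.25% and 40% of all transcripts, so the 53 stands against a far larger share than the 20. The count was 2 to 9 when an E14 array was omitted, or replicate 1 or 2 of E15, or replicate 1 or 2 of E16, where 1.25% to 2.48% of all transcripts were called. The count for E18 against E14 was 15 to 19 when an E14 array was omitted, 22 when E18 replicate 2 was and 34 when E15 replicate 1 was. The shares of all transcripts called lower in these fits were 2.36% to 2.74%, 3.87% and 7.31%. Omitting E18 replicate 1 gave the highest count with an array left out, 63, where 33.1% of all transcripts were called lower. Without E18 replicates 2 and 3 only 1 E18 array was left, so the count of that fit is not weighed. Its median of E18 minus E14 was -0.68 over the members and -0.04 over all transcripts. After median centring, cyclic loess and scaling of each array, the contrast of E18 with E14 called 35, 16 and 28 members. Lower calls over all transcripts were 9.76%, 10.4% and 7.37%. At an adjusted p of at most 0.01 the contrast called 10 members, against 1.55%.

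The E15 arrays had no part in the choice beyond the floor and give the position of the members between E14 and E16. In most members E15 was nearer to E14 than to E16. E15 minus E14 had a median of -0.23 over the members, with a range from -0.93 to 0.42, and E16 minus E15 had a median of -0.46, with a range from -1.43 to 0.08. The same medians over all transcripts were -0.03 and -0.02. By E15 a median member had covered 32.5% of its way from E14 to E16, with quartiles of 21.99% and 45.3%. The share was under 50% in 72 members and 50% or more in 14. Because the choice took members with high E14 and low E16 values, both steps lean downward. E15 minus the midpoint of E14 and E16 had a median of 0.12 over the members and of -0.01 over all transcripts. It was 0.06 without E15 replicate 2 and 0.22 without E15 replicate 3. This measure is not fully free of the choice either, because the members varied more at E16 than at E14, and a choice of low E16 values then raises it. No member passed an adjusted p of 0.05 for this distance in limma, and 0% of all transcripts were called above the midpoint. At an unadjusted p under 0.05 in either direction there were 5 members, and 0.921% of all transcripts. Among the 5 was the member whose E15 mean lay below that of E16, at -0.50 from the midpoint.

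**Figure D4:**
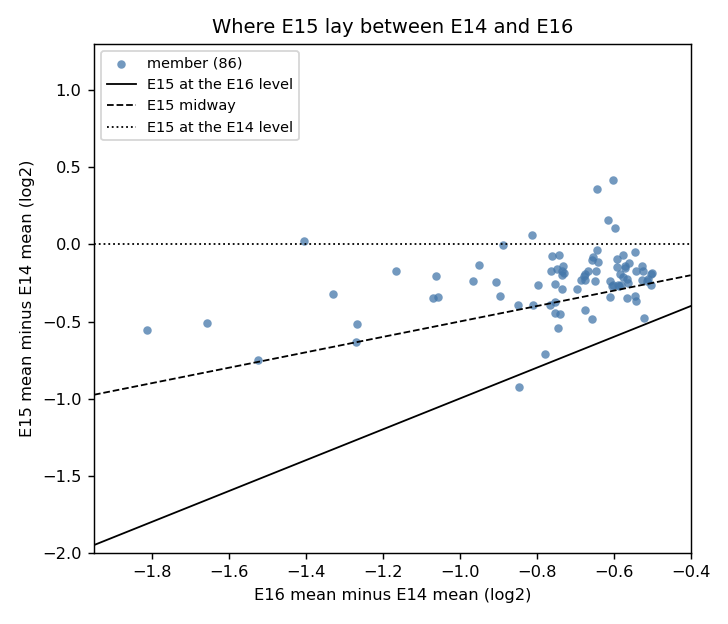
Each point is 1 of the 86 members, with E16 minus E14 on the horizontal axis and E15 minus E14 on the vertical axis, both in log2 units. Points above the dashed line, 72 of the 86, had an E15 mean nearer to E14 than to E16, and points above the dotted line, 6 of the 86, had an E15 mean above that of E14.

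The E15 samples differed among themselves. Relative to the E14 mean the median member was at -0.18 on E15 replicate 1, -0.08 on replicate 2 and -0.42 on replicate 3, where the 13860 transcripts above the floor were at -0.02, 0.01 and -0.14. Replicate 3 was the lowest of the 3 E15 samples in 63 of the 86 members and in 59.7% of the 13860 transcripts, and the SD of all its values, 2.44, was lower than the 2.60 and 2.62 of replicates 1 and 2. The median share of the way covered was 23.3% on replicate 1, 10.9% on replicate 2 and 57.7% on replicate 3. With replicates 1 and 2 only, the median share was 19.0%, the median of E15 minus E14 was -0.15, and 80 members had covered less than 50%.

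The overlap of the E15 samples with those of E14 and E16 differed between members. In 25 members every E15 value lay below every E14 value, where 6.67% of all transcripts and 8.04% of the 13860 did, and in 49 every E15 value lay above every E16 value, where 7.26% and 8.21% did. E15 overlapped E14 in 59 members, where 89.6% of all transcripts and 88.5% of the 13860 did. The choice of high E14 and low E16 values favours both. The joint split that follows was not counted over all transcripts, and the choice shapes it, so it only describes the members. In 34 members E15 overlapped E14 and was clear of E16, in 12 it was below E14 and overlapped E16, in 13 it was clear of both and between them, in 25 it overlapped both, and in 2 it was above every E14 value. Of those 2, the dimmer read 9.37, 9.48 and 9.11 at E14, 9.64, 9.91 and 9.48 at E15, and 8.83, 9.02 and 8.18 at E16. The brighter read 9.66, 9.87 and 9.88 at E14, 10.04, 10.57 and 10.06 at E15, and 9.09, 9.13 and 9.39 at E16, with an E15 mean 0.42 above that of E14. At the other end, 1 member had an E15 mean below that of E16, with 9.52, 9.36 and 9.67 at E14, 8.45, 8.59 and 8.73 at E15, 8.77, 8.92 and 8.32 at E16, and 8.67, 8.12 and 8.36 at E18.

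No member passed the contrast of E15 with E14 or that of E16 with E15 after adjustment in limma, and 0% of all transcripts were called lower in either. At an unadjusted p under 0.05 there were 6 members for E15 against E14, where 0.944% of all transcripts were, and 44 for E16 against E15, where 4.02% were. The lowest adjusted p was 0.9999 for E15 against E14 and 0.259 for E16 against E15. Between E16 and E18, 63 members had a lower mean at E18 and 23 a higher one, all within the limit of 0.3 that the choice sets. E18 minus E16 had a median of -0.08 over the members, -0.22 over the 13860 and -0.14 over all transcripts. The samples of E18 and E16 overlapped in 82 of the 86, where 76.4% of all transcripts and 72.2% of the 13860 overlapped.

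The choice was repeated without replicate 1, 2 or 3 of every stage, and the arrays left out were then read. Their values did not pick these transcripts, but the rule itself was set with earlier results of all arrays known. The readings are therefore descriptions and carry no support. Without replicate 1, 91 transcripts met the rule, and in the left-out arrays their median of E16 minus E14 was -0.55, with E16 below E14 in 81 of the 91. Without replicate 2, 172 met it, with a left-out median of -0.40 and 143 below. Without replicate 3, 304 met it, with a left-out median of -0.35 and 243 below. Over all transcripts whose 8 remaining values reached the floor, the left-out medians were -0.07, 0.00 and -0.07, and E16 was below E14 in 59.8%, 49.6% and 60.1%. In the arrays used for the choice the medians were -0.68, -0.64 and -0.67. Each left-out reading sets 1 E16 array against 1 E14 array, and the transcripts share those arrays, so the counts describe these arrays and are not replicates. The chosen transcripts included 50, 63 and 66 of the 86 members, so without replicates 2 and 3 most were other transcripts.

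The E18 level was less even in the arrays left out. E18 minus E14 in the left-out arrays had a median of -0.60 for replicate 1, where all transcripts above the floor had -0.07. For replicate 2 it was -0.91, against -0.18, and for replicate 3 it was -0.51, against -0.55. On replicate 3, E18 was below E14 in 206 of the 304 chosen transcripts, 67.8%, and in 75.4% of all transcripts above the floor. The chosen transcripts were thus no lower at E18 than bright transcripts at large in the pair of arrays that includes E18 replicate 3. E18 minus E16 in the left-out arrays had medians of -0.10, -0.48 and -0.26 for replicates 1, 2 and 3, where all transcripts above the floor had 0.00, -0.18 and -0.50. The 3 choices share arrays with each other and are not independent of one another.

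**Figure D5:**
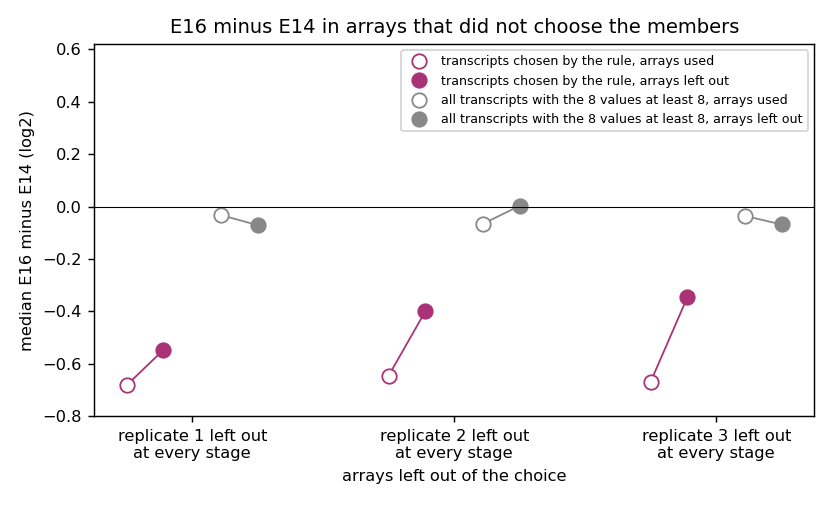
Median of E16 minus E14 in log2 units, for the transcripts chosen without 1 replicate number of every stage (purple, left) and for all transcripts whose 8 remaining values were at least 8 (grey, right). Open circles are arrays used for the choice and filled circles the arrays left out, where the chosen transcripts were at -0.55, -0.40 and -0.35.

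The members resembled each other over the 12 arrays, which the choice brings about. The correlation of a pair ran from 0.12 to 0.97 over the 3655 pairs, with a median of 0.72. No 2 transcripts of the whole table had identical values. In 3 pairs the identifier numbers were at most 10 apart. Their correlations over the 12 arrays were 0.90, 0.94 and 0.76, and whether such a pair belongs to 1 gene or shares probes is not given in the sources used here.

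The limits of the rule cut through a continuous range. The smallest difference between E14 and E16 inside was 0.501 and the largest outside, with the other criteria met, was 0.499. The E18 and E16 means were at most 0.290 apart inside and at least 0.302 apart outside. A further 65 transcripts met all criteria but the floor of 8, 71 had overlapping samples, and 670 had a smaller difference. The lowest E14 value and the highest E16 or E18 value were between 0.0055 and 1.04 log2 units apart in the members, with a median of 0.27.

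Among other courses built with the same limits, 2 held more transcripts and 1 fewer. In 261 transcripts the level was lower at E16 by the same rule and lower again at E18 by at least 0.3, with medians of -0.64 for E16 minus E14 and -0.70 for E18 minus E16. In 3 transcripts E18 turned back up by at least 0.3. The mirror course, higher at E16 and level to E18, had 161 transcripts with a median of 0.82 for E16 minus E14. By E15 a median transcript had covered 35.96% of its way in the course that went on and 23.4% in the mirror course, beside 32.5% in the 86 members. These shares were not tested against each other. The other courses were counted in the deposited values only and not under other normalizations. In those values the 13860 transcripts above the floor had medians of -0.06, -0.19 and -0.51 on E18 replicates 1, 2 and 3, relative to the E14 mean.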

How the data were processed

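Labelled cDNA made from whole-lung RNA of 12 chick embryo samples was hybridized to custom NimbleGen arrays. The authors deposited log2 values, made from the scans by Robust Multi-array Analysis (RMA), which corrects the background, normalizes by quantiles and sums up the probes of a transcript. The paper names DNASTAR ArrayStar, and its version, the Ensembl release and the probes per transcript are not given in the sources used here. The number of arrays limits the precision.

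The 86 members were found by the rule, and the rule, the tests and the lists were chosen with earlier results of these data known. A mean per stage was fitted to 21390 transcripts in R 4.3.3 with limma 3.58.1, leaving out 1 random-sequence control, with 8 residual degrees of freedom, Benjamini-Hochberg adjustment and a threshold of 0.05. No filter was applied before the fit. Exact permutation tests used scipy 1.17.1 and plots matplotlib 3.10.9, under Python 3.11.15 (pandas 2.3.3, numpy 2.4.6). Without gene names, lists of genes were not used, and the transcripts named are the member with the largest difference between E16 and E14 and the brightest member. Other members are given by their place in an order.

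Alternatives tried were cyclic loess, median centring, quantile normalization, scaling of each array to 1 SD, leaving out each array, leaving out E18 replicates 2 and 3, leaving out the dimmest transcripts, an intensity trend with robust variances, the replicate number as a block, a fit of only the stages compared, one-way ANOVA, an adjusted p of at most 0.01 and other limits of the rule.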

Additional observations from a re-analysis of the deposited data

How the results depend on the processing

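The median of E16 minus E14 over the 86 members was -0.72 to -0.61 under the 4 other normalizations and with each array left out. Those of E15 minus E14 and E16 minus E15 were -0.30 to -0.15 and -0.57 to -0.39. The choice favours these medians, so they carry no support. No member was called at E15 against E14, at E16 against E15 or for E15 against the midpoint in any setting, and at E18 against E16 the count was 0 to 1 with each array left out.

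The number of transcripts that meet the rule was 159 with E18 and E16 less than 0.5 apart, 141 with a difference of at least 0.4, 37 with at least 0.7, 284 without E18 replicates 2 and 3, and between 85 and 177 with each array left out, with 177 without E18 replicate 3. After cyclic loess 87 transcripts met it, of which 26 were among the 86 members. After median centring 59 members met it, after quantile normalization 53 and after scaling 49.

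The count called lower at E16 than at E14, 0, was 1 with median centring, 1 with cyclic loess, 1 with quantile normalization, 17 without E18 replicates 2 and 3, 8 of the 78 members left without the dimmest transcripts, 4 with an intensity trend and robust variances, and 0 to 13 with each array left out. The F-test count, 20 (4.41% of all transcripts), was 10 with cyclic loess (8.58%). It was 38 of the 78 members left without the dimmest transcripts (10.9% of the transcripts kept). At an adjusted p of at most 0.01 it was 0 (0.72%). One-way ANOVA called 18 members with adjustment (4.17%) and 65 without it (22.9%). The F-test count was 1 to 53 with each array left out (1.05% to 40%). The count lower at E18 than at E14 was 54. In alternatives added after the values were seen it was 35 with median centring, 16 with cyclic loess and 28 with scaling. It was 0 with only the 2 stages fitted, 10 at a threshold of 0.01 and 15 to 63 with each array left out. Over all transcripts this contrast called 2693 lower and 1462 higher in the deposited values, 1577 and 1813 after scaling, and 2229 and 2402 after cyclic loess.

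With cyclic loess the median of E18 minus E16 was 0.24 and that of E18 minus E14 was -0.41. Over all transcripts the median of E18 minus E14 was -0.17 in the deposited values, -0.05 with median centring and 0.03 with scaling. In arrays left out of the repeated choices the median of E16 minus E14 was -0.55 to -0.35. ENSGALT00000014738 passed 0.05 for E16 against E14 in 7 of 21 alternatives and ENSGALT00000032430 in 5, with adjusted p from 0.0124 to 0.295 and from 0.0280 to 0.290. The cause of these changes was not tested.

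With the replicate block the F-test called 6 members (1.85% of all transcripts) and the contrast of E18 with E14 38 (9.14%). No member was called in the other contrasts. A pairing of the arrays by replicate number was not evident, though these values cannot exclude it. Of 18 pairs of arrays with the same number, 3 had deviations from the stage means that correlated over 0.1. Of the 12 arrays, 2 correlated best with their own number.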
